A study of Homo sapiens with 6 samples.

Results

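The 9 enzymes described here, all of pyrimidine and deoxynucleotide metabolism, were examined in H1975 cells, a human non-small cell lung cancer line with a mutated EGFR: CAD, UMPS, CTPS1, TYMS, TK1, RRM1, RRM2, DUT and DPYD. They were taken by symbol from a deposited table of 27216 rows, and all 9 were present, 1 row each. The table holds RNA-sequencing values of 6 samples. Parental cells (3 samples) carry the label of Osimertinib at 1000 nM for 0 h, and adapted cells (3 samples) that of the same dose for 72 h. Osimertinib (Osi) is an EGFR tyrosine kinase inhibitor. All samples are labelled as wild-type in genotype, and come from a single cell line. The table names its parental columns for DMSO, the solvent, and the series description also names DMSO as a treatment, while the labels of these samples give only Osi for 0 h. Which length of DMSO exposure, if any, the parental columns carry is therefore not settled. Dying cells were rinsed off before RNA was taken from the treated cultures, so the adapted values describe the cells that stayed attached. The labels also describe a digestion with RNase R, an enzyme that degrades linear RNA, which the study's methods do not mention, and its part in the values was not tested. Values are taken as log2(FPKM + 1), FPKM being a measure of RNA abundance that allows for transcript length and for how deeply a library was sequenced. The table does not name its unit. The log2(value + 1) scale was inferred from the values, and FPKM was assumed.

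Pyrimidine nucleotides are made de novo by CAD, which carries out the opening steps of the pathway, by DHODH, and by UMPS, which ends it at UMP. CTPS1 converts UTP to CTP. Ribonucleotide reductase, formed by the large subunit RRM1 and the small subunit RRM2, turns ribonucleotides into deoxyribonucleotides for DNA. TYMS makes thymidylate from dUMP, DUT supplies that dUMP by cleaving dUTP and so keeps uracil out of DNA, and TK1 salvages thymidine. DPYD starts the breakdown of uracil and thymine, and also inactivates fluorouracil. RRM2, TYMS and TK1 are textbook genes of the G1 to S transition, under the control of E2F factors, and TYMS and ribonucleotide reductase are drug targets in cancer.

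Over all rows, any 2 parental samples had a Pearson r of 0.997, and adapted replicates 2 and 3 had r = 0.996. Adapted replicate 1 stood somewhat apart, at r = 0.991 with each of the other adapted samples and r = 0.972 to 0.973 with the parental samples, against 0.963 to 0.964 for adapted replicates 2 and 3. These are correlations across genes, which are not independent replicates. The fold changes of the 9 enzymes are therefore also given without it. Markers of lung adenocarcinoma cells were present in every sample, with a summed FPKM of the 7 markers between 4022 and 4330. Single markers moved in both directions within that sum. KRT7 rose by 1.07 on the log2 scale, KRT19 (-0.75), KRT18 (-0.57) and KRT8 (-0.28) fell (adjusted p at most 0.0477 in limma), and EPCAM, CDH1 and EGFR did not pass the threshold. Of 9 markers of blood, endothelial and stromal cells, 6 (PTPRC, CD3E, HBB, VWF, COL1A2 and PDGFRB) were at or under 0.5 on the log2 scale in all samples. The most abundant of the 9 was CD68, a lysosomal protein of macrophages and other cells, with an FPKM of 73.7 to 76.3 in parental and 14.5 to 29.6 in adapted cells. The summed FPKM of these 9 markers was 77.0 to 79.5 in parental and 16.3 to 31.0 in adapted cells, and its part in the results below was not tested.

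Of the 9 enzymes, 6 were lower in adapted cells and 1 was higher (limma, threshold 0.05 on the adjusted p). The enzymes that supply deoxynucleotides (TK1, RRM2, RRM1, TYMS and DUT) and the breakdown enzyme DPYD fell, CAD rose, and UMPS and CTPS1 did not pass the threshold. Over the whole table, 7202 of 12656 rows tested were called (56.9%), 26.2% lower and 30.7% higher, so a single call is common here. The median log2 fold change of the 9 enzymes was -0.87 (-1.03, -0.74 and -0.65 without adapted replicate 1, 2 and 3 in turn), and that of all rows tested was 0.03. The 3 adapted values did not overlap the 3 parental values in the 7 enzymes called, and this held in 66.3% of all rows tested. For a single gene, the exact permutation test of 3 against 3 samples has 0.1 as its lowest two-sided p. Fewer cells in S phase and less RNA of these enzymes per cell cannot be told apart in bulk samples.

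**Figure D1:**
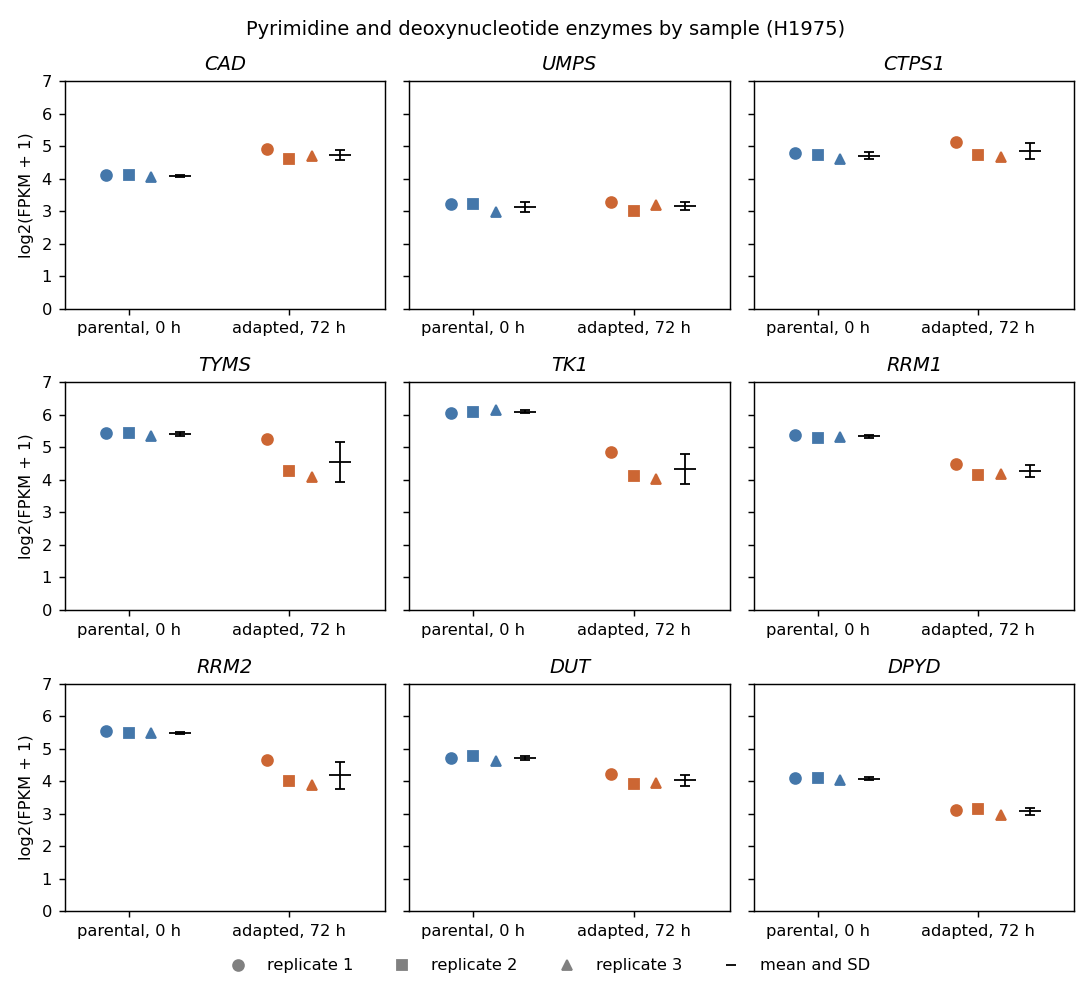
Each panel shows 1 enzyme, with log2(FPKM + 1) on the y axis and parental (blue) and adapted (orange) samples on the x axis. Symbols are replicates, and the bar beside them is the mean with the SD (n = 3). TK1, RRM2, RRM1, TYMS, DUT and DPYD lie lower in adapted cells, CAD lies higher, and the values of UMPS and CTPS1 overlap between the groups.

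RNA of both subunits of ribonucleotide reductase fell. RRM2 (GRCh38, chr2:10120698-10131419, plus strand, GENCODE v29, as for the loci below), the small subunit that holds the tyrosyl radical, was 5.53, 5.48 and 5.47 in the parental samples and 4.65, 3.997 and 3.88 in the adapted samples. Its log2 fold change was -1.32 (SE 0.18, adjusted p = 7.87e-04 in limma), and its mean FPKM went from 44.1 to 17.6, or 39.9% of the parental level. All adapted values were below all parental values, and adapted replicate 1 was the highest of the 3. RRM1 (chr11:4094707-4138876, plus strand), the large subunit with the catalytic and allosteric sites, was 5.39, 5.30 and 5.32 in the parental and 4.49, 4.15 and 4.17 in the adapted samples, a log2 fold change of -1.07 (SE 0.10, adjusted p = 1.16e-04 in limma). Adapted replicate 1 was again the highest adapted sample, and the groups did not overlap. Without adapted replicate 1 the log2 fold changes were -1.56 for RRM2 and -1.17 for RRM1. RRM2 shares 1077 exon bases with AC007240.1, annotated on the same strand, so reads there could be counted for either, and the row of that gene averaged 1.13 in parental and 0.37 in adapted cells. RRM2B, the paralog of RRM2 that serves cells outside S phase and is induced by p53, was 3.78, 3.68 and 3.74 in the parental and 3.93, 4.04 and 3.71 in the adapted samples, which overlap (log2 fold change 0.16, adjusted p = 0.166 in limma).

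The balance of the subunits was followed within each sample as a difference of log2 values. RRM2 minus RRM1 was 0.14, 0.18 and 0.16 in the parental samples, and 0.16, -0.15 and -0.29 in the adapted samples. Adapted replicate 1 lay within the parental range and the other adapted samples below it, and the change of -0.25 was within the spread (exact permutation test, two-sided, p = 0.3, adjusted p = 0.36 over 6 pairs). Its size depended on single samples, at -0.38 without adapted replicate 1 and -0.16 without adapted replicate 3. RRM2 minus RRM2B was 1.75, 1.80 and 1.74 in the parental samples and 0.71, -0.04 and 0.17 in the adapted samples. The small subunit RRM2 thus stood above its paralog by 1.76 ± 0.03 in parental and by 0.28 ± 0.39 in adapted cells (mean ± SD, 3 samples a group). The groups did not overlap, and the exact permutation p was 0.1, the smallest this design allows (adjusted p = 0.2 over 6 pairs).

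RRM1 and RRM2 fell together, and their promoters were read for motifs. RefSeq windows (GRCh38.p14) that run from 250 bases before to 50 bases after an annotated start were available for all 9 enzymes, 16 windows in all, and they were searched on both strands. The motifs were the CCAAT box (CCAAT, bound by NF-Y), E2F sites (TTTCCCGC, TTTGGCGC, TTTCGCGC or TTTGCCGC), the E-box (CACGTG), the CHR element of the cell cycle (TTTGAA or TTCGAA) and the GC box (GGGCGG, bound by SP1). No motif in this set lies wholly within another, though matches can overlap in part. Of all 35116 windows, 34.6% held a CCAAT box, 3.31% an E2F match, 7.26% an E-box, 16.4% a CHR match and 45% a GC box. RRM2 has 2 windows, 1 with a single CCAAT box at position -249, and the other, which starts further downstream, with 3 CCAAT boxes, and 3.26% of all windows held 3 or more. The 3 boxes begin at positions -123, -93 and -66 from the downstream start, lie after the upstream start and in annotated exons, with 11 to 23 bases of each run annotated as coding. The single window of RRM1 held 1 CCAAT box, at position -28, in a stretch with no annotated exon. Matched letters are in capitals, sequences are written 5′ to 3′ on the strand of the gene, and the CCAAT boxes are shown because windows of both subunits hold them. Windows of both also hold a GC box, at -149 in RRM1 and at -129 in the upstream window of RRM2.
RRM2, chr2:10122607-10122629, plus strand: aaggcgcagCCAATgggaagggt
RRM2, chr2:10122637-10122659, plus strand: atggcacagCCAATgggaagggc
RRM2, chr2:10122664-10122686, plus strand: gcaccaaagCCAATgggaagggc
RRM1, chr11:4094555-4094684, plus strand: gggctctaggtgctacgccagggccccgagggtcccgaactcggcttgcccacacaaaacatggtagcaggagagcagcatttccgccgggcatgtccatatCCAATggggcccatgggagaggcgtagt

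RNA of the enzymes of thymidylate supply also fell, with the largest change in TK1. TK1 (chr17:78174075-78187233, minus strand), the cytosolic thymidine kinase of dividing cells, was 6.06, 6.09 and 6.15 in the parental samples and 4.85, 4.10 and 4.02 in the adapted samples. Its log2 fold change was -1.77 (SE 0.20, adjusted p = 3.15e-04 in limma), the largest of the 9 enzymes in size, and the mean FPKM in adapted cells was 29.3% of that in parental cells. Every adapted sample was below every parental sample by more than 1 on the log2 scale, and the log2 fold change was -2.04 without adapted replicate 1. TK2, the mitochondrial thymidine kinase, changed less, from 3.39, 3.51 and 3.35 to 3.16, 3.10 and 3.10 (log2 fold change -0.30, adjusted p = 0.00871 in limma). TK1 minus TK2 was 2.68 ± 0.11 in parental and 1.21 ± 0.42 in adapted cells (mean ± SD, 3 samples a group), with no overlap (exact permutation p = 0.1, adjusted p = 0.2 over 6 pairs).

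TYMS (chr18:657604-673578, plus strand), which methylates dUMP to thymidylate, was 5.45, 5.43 and 5.35 in the parental samples. In the adapted samples it was 5.25, 4.28 and 4.10. Adapted replicate 1 lay only just under the parental values while the other adapted samples lay far below, so the adapted SD (0.62) was the largest of the 9 enzymes. The log2 fold change was -0.87 (SE 0.27, adjusted p = 0.028 in limma). This call rested on the full set of samples: without adapted replicate 1 the log2 fold change was -1.22 (adjusted p = 7e-06), but in the fits that left out any other single sample the adjusted p was 0.0642 to 0.0973. TYMS shares 967 exon bases with ENOSF1 on the opposite strand, and whether strand was used in counting is not given in the sources used here. ENOSF1 averaged 3.10 in parental and 3.08 in adapted cells.

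DUT (chr15:48331011-48343373, plus strand), the dUTP pyrophosphatase, was 4.71, 4.76 and 4.63 in the parental and 4.23, 3.92 and 3.93 in the adapted samples. The log2 fold change was -0.67 (SE 0.09, adjusted p = 8.23e-04 in limma), the smallest of the 6 falls, and -0.77 without adapted replicate 1, and the groups did not overlap. GENCODE v29 names 8 DUT copies (DUTP), 3 of RRM2 and 2 of TYMS as separate loci, none of which has a row here, so reads from near-identical copies may be counted with these genes. Thymidylate kinase, DTYMK, which phosphorylates the product of TYMS and TK1, fell by 0.78 on the log2 scale (adjusted p = 0.00441 in limma).

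Of the 9 enzymes, E2F matches were found only in windows of TYMS and DUT, with 1 match in TYMS and 2 matches in 1 of the 4 DUT windows. Of all windows, 0.145% held 2 or more. CCAAT boxes were found in windows of RRM1, RRM2, TK1 and CAD, and in CAD the match is at the far end of the window. In TK1, 1 of the 2 windows held 2 CCAAT boxes, both as ATTGG on the strand of the gene. The TYMS, TK1 and DUT runs lie wholly in annotated untranslated exons and are shortened to the sites, which are shown because they are the E2F and CCAAT matches of the thymidylate enzymes. CHR matches were found in windows of RRM1 (-199), DUT (-214 and -129) and UMPS (-207 and -7), the last an enzyme that did not pass the threshold. GC boxes were found in windows of 7 of the 9 enzymes, all but UMPS and TYMS. No E-box was found in a window of the 9 enzymes. A match describes these letters only, and binding was not measured.
TYMS, chr18:657605-657630, plus strand: gggacggccGCGGGAAAaggcgcgcg
DUT, chr15:48332152-48332180, plus strand: ctgGCGGGAAAtttcggtTTTGGCGCgct
TK1, chr17:78187116-78187138, minus strand: cgggcgctgATTGGccccatggc
TK1, chr17:78187085-78187107, minus strand: cggctcgtgATTGGccagcacgc

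Among the enzymes that make UMP and CTP, CAD rose and UMPS and CTPS1 did not pass the threshold, while DHODH, given below, fell. CAD (chr2:27217390-27243943, plus strand), the trifunctional enzyme that controls entry into pyrimidine synthesis, was 4.11, 4.10 and 4.05 in the parental samples and 4.90, 4.61 and 4.70 in the adapted samples. It rose by a log2 fold change of 0.65 (SE 0.08, adjusted p = 5.69e-04 in limma), and its mean FPKM went from 16.0 to 25.8. All adapted values were above all parental values, and the rise was 0.56 without adapted replicate 1 (adjusted p = 9.89e-05 in limma). UMPS (chr3:124730366-124749273, plus strand) was 3.23, 3.21 and 2.96 in the parental and 3.28, 3.02 and 3.18 in the adapted samples. These overlap, and the log2 fold change was 0.03 with a 95% interval of -0.22 to 0.27 (adjusted p = 0.847 in limma). CTPS1 (chr1:40979335-41012565, plus strand) was 4.80, 4.72 and 4.60 in the parental samples and 5.13, 4.72 and 4.68 in the adapted samples. Here adapted replicate 1 was above the others, and the log2 fold change was 0.14 with a 95% interval of -0.16 to 0.43 (adjusted p = 0.386 in limma). Both intervals exclude a change as large as that of CAD. Without adapted replicate 1 the log2 fold changes were -0.034 for UMPS and -0.0072 for CTPS1.

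Within each sample, CAD minus UMPS was 0.88, 0.89 and 1.09 in the parental samples and 1.62, 1.59 and 1.51 in the adapted samples. CAD thus moved further from UMPS by 0.62 on the log2 scale, with no overlap (exact permutation p = 0.1, adjusted p = 0.2 over 6 pairs). CTPS2, the paralog of CTPS1, was 2.97, 2.98 and 2.98 in parental and 3.09, 3.54 and 3.47 in adapted cells, a log2 fold change of 0.39 (adjusted p = 0.0265 in limma). CTPS1 minus CTPS2 was 1.83, 1.74 and 1.62 in the parental and 2.04, 1.18 and 1.20 in the adapted samples, which overlap (exact permutation p = 0.4). That difference changed by -0.25 with all samples, by -0.54 without adapted replicate 1, by -0.11 without adapted replicate 2 and by -0.12 without adapted replicate 3. DHODH, the mitochondrial step between CAD and UMPS, fell by 0.26 on the log2 scale (adjusted p = 0.0214 in limma). The stretch before the start of CAD is shown because CAD is the enzyme that rose. It lies outside annotated exons and has 2 GC boxes, in capitals, on the opposite strand. The only CCAAT match of the CAD window is at position -250, upstream of this stretch, and the window holds no E2F match.
CAD, chr2:27217239-27217368, plus strand: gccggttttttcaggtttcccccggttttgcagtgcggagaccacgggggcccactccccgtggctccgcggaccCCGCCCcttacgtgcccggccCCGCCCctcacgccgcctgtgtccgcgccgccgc

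**Figure D2:**
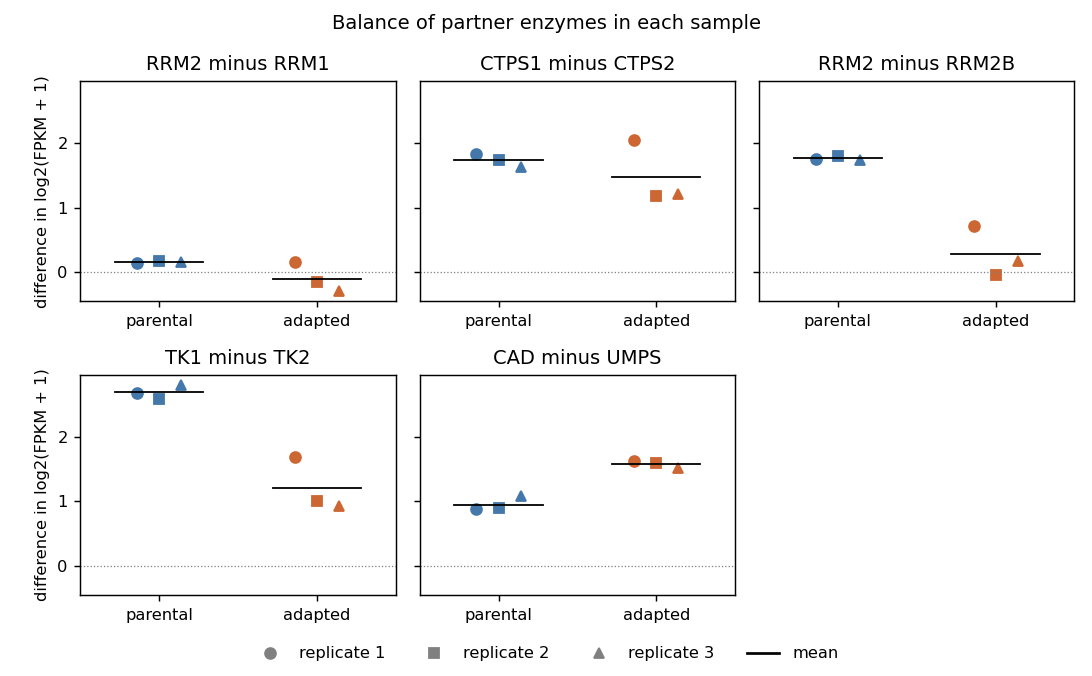
Difference in log2(FPKM + 1) between 2 partner enzymes (y axis) in each parental (blue) and adapted (orange) sample, with the group mean as a line. RRM2 minus RRM2B and TK1 minus TK2 are lower and CAD minus UMPS is higher in all adapted samples than in all parental samples, and the other 2 pairs overlap.

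DPYD (chr1:97077743-97995000, minus strand), dihydropyrimidine dehydrogenase, was 4.11, 4.11 and 4.03 in the parental samples and 3.11, 3.15 and 2.94 in the adapted samples. Its log2 fold change was -1.01 (SE 0.08, adjusted p = 5.04e-05 in limma), the lowest adjusted p of the 9 enzymes, and its mean FPKM was 46.6% of the parental level. Adapted replicate 1 lay between the other adapted samples, unlike in the other enzymes that fell, and the log2 fold change was -1.03 without it. Its 2 windows held 3 GC boxes each and no match to the other motifs, so GC boxes without an E2F match occur in windows of CAD, which rose, and of DPYD, which fell. Of the other genes of pyrimidine breakdown, UPP1, a uridine phosphorylase, went from 6.78, 6.80 and 6.92 to 5.29, 5.47 and 5.45, a log2 fold change of -1.43 (adjusted p = 1.01e-05 in limma). TYMP, thymidine phosphorylase, did not pass the threshold (log2 fold change -0.19, adjusted p = 0.199 in limma). The later breakdown enzymes DPYS and UPB1, and the second uridine phosphorylase UPP2, were no higher than 0.102 in any sample and were not tested.

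The order of mean levels differed between the groups. In parental cells the mean FPKM was highest for TK1 (67.6 ± 2.0), followed by RRM2 (44.1 ± 1.0), TYMS (41.6 ± 1.5), RRM1 (39.4 ± 1.4), CTPS1 (25.1 ± 1.8), DUT (25.1 ± 1.2), CAD (16.0 ± 0.4), DPYD (15.9 ± 0.5) and UMPS (7.82 ± 0.89, SD of 3 samples for all). The values of TYMS and RRM1, of CTPS1 and DUT, and of CAD and DPYD overlapped. In adapted cells CTPS1 (27.9 ± 5.2) and CAD (25.8 ± 2.9) came first, followed by TYMS (23.9 ± 11.5), TK1 (19.8 ± 7.0), RRM1 (18.4 ± 2.6), RRM2 (17.6 ± 5.6), DUT (15.4 ± 2.0), UMPS (7.97 ± 0.81) and DPYD (7.41 ± 0.62). Among these, the only neighbours without overlap were DUT and UMPS. Overlap pools the samples of a group and ignores that both genes were measured in the same sample. Within each sample, TYMS was above TK1 in all 3 adapted samples, and above RRM1 in all 3 parental samples. The other neighbours that overlapped changed order between samples. Further apart in that order, all values of CTPS1 were above all those of RRM1, RRM2 and DUT, and all values of CAD above those of RRM1 and DUT. This comparison between genes assumes a length-scaled unit, which the values do not show, and the order holds only under that assumption.

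**Figure D3:**
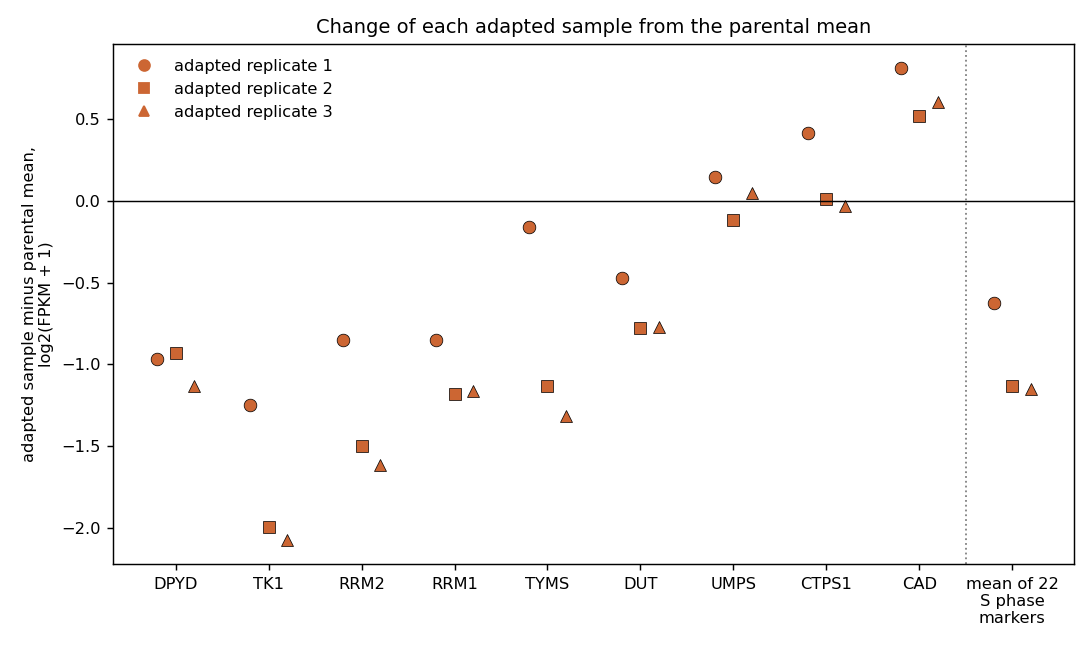
Change of each adapted sample from the mean of the 3 parental samples, in log2(FPKM + 1) (y axis), for the 9 enzymes and for the mean of 22 S phase markers (x axis). Symbols are the 3 adapted replicates. Replicate 1 lies nearest to the parental mean in TK1, RRM2, RRM1, TYMS and DUT and in the marker mean, but not in DPYD.

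Adapted replicate 1 was the adapted sample nearest to the parental mean in 5 of the 6 enzymes that fell, in 56% of the 3313 rows called lower, and in 48% of all rows tested. The mean of 22 S phase and proliferation markers was 4.67, 4.70 and 4.68 in the parental samples, and 4.06, 3.55 and 3.53 in the adapted samples, so adapted replicate 1 was also the highest adapted sample there. Of these 22 markers 17 fell and 1 rose (26.2% and 30.7% of all rows tested), with a median log2 fold change of -0.82. The largest falls were in TOP2A, a DNA topoisomerase (-2.77), CDK1, the mitotic kinase (-2.50), CDT1, a licensing factor (-2.01), and MKI67 (-1.89), and CCNE2, cyclin E2, rose by 0.45. All 5 had a limma adjusted p of at most 0.0023.

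Among 16 regulators of these enzymes and of their neighbours in the cell cycle, 12 fell and 1 rose (median log2 fold change -0.45). The shares over all rows tested were 26.2% lower and 30.7% higher. FOXM1 (-1.77) and MYBL2 (-1.28), factors of the later cell cycle, CCNF, the ubiquitin ligase subunit that targets RRM2 for destruction (-1.05), and LIN9 (-0.77), a subunit of the DREAM and MuvB complexes, fell most (adjusted p at most 8.58e-04 in limma). E2F1 fell from 3.84 ± 0.04 to 3.21 ± 0.27 (mean ± SD, 3 samples a group, adjusted p = 0.0052 in limma). E2F2 (-0.64), E2F4 (-0.29), RB1 (-0.41) and RBL1 (-0.64) also fell (adjusted p at most 0.0376 in limma). E2F2 averaged 0.77 in adapted cells, under the filter of 1. E2F3 (0.03, adjusted p = 0.801) and RBL2 (0.14, adjusted p = 0.132 in limma) did not pass the threshold. All 9 enzymes are on the 6-decimal grid of linear values that the table follows in all but 147 rows.

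**Figure D4:**
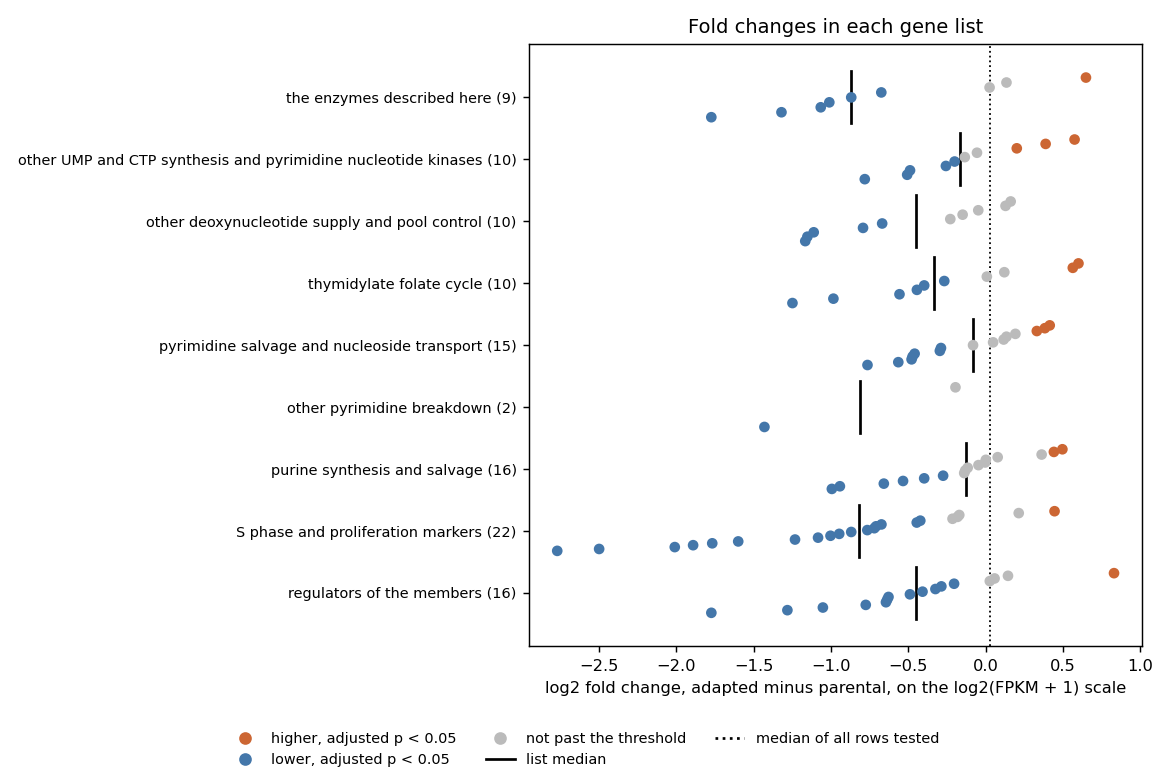
Log2 fold change of adapted against parental cells on the log2(FPKM + 1) scale (x axis) for each tested gene of 9 lists (y axis, number tested in brackets). Orange and blue points passed the limma threshold as higher and lower, black lines are list medians, and the dotted line is the median of all rows tested. The medians of the enzymes described here (-0.87) and of the S phase markers (-0.82) lie further below that line than those of purine synthesis (-0.12) and pyrimidine salvage (-0.08). The medians of the other lists lie in between, from -0.17 for UMP and CTP synthesis to -0.81 for pyrimidine breakdown (2 genes tested). Differences between lists were not tested.

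The rest of the pathway moved in both directions. In other steps of UMP and CTP synthesis and the nucleotide kinases, 5 of 10 genes fell and 3 rose, with a median of -0.17. Over all rows tested, 26.2% were called lower and 30.7% higher. DTYMK, the nucleoside diphosphate kinases NME3 (-0.51) and NME2 (-0.49), and DHODH fell most, and CMPK2 (0.58), a mitochondrial nucleotide kinase, CTPS2 (0.39) and NME6 (0.20) rose (adjusted p at most 0.0286 in limma). NME1 and NME2 are adjacent and alike in sequence, so their values are uncertain. These counts depend on single samples, with 2 to 9 of the 10 genes called when 1 sample was left out, 4 without parental replicate 1 and 2 without parental replicate 2 or 3.

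Genes that support ribonucleotide reductase and guard the deoxynucleotide pool fell or did not pass the threshold. Of 11 genes, 10 were tested, 5 fell and 0 rose (limma, 0 of the 10 higher). The shares of all rows tested were 26.2% lower and 30.7% higher, and the list median was -0.45. TXNRD1, thioredoxin reductase 1 (-1.17), TXN, thioredoxin (-0.79), and GLRX, glutaredoxin (-1.11), which carry electrons to ribonucleotide reductase, fell, and so did NUDT1 (-1.15), which removes oxidized purine nucleotides (adjusted p at most 0.00482 in limma). SAMHD1, a deoxynucleotide triphosphatase, was at 0.03 to 0.21 in all samples and was not tested.

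Of 10 genes of the folate cycle that feeds thymidylate synthesis, 6 fell and 2 rose (26.2% and 30.7% of all rows tested). Their median was -0.33. SHMT1 (-1.25), which makes the one-carbon folate in the cytosol, and the mitochondrial enzymes MTHFD2 (-0.98) and SHMT2 (-0.56) fell, as did FPGS (-0.44), which retains folates in the cell (adjusted p at most 0.0417 in limma). Of the 2 that rose, the folate transporter SLC46A1 rose by 0.56 (adjusted p = 4.66e-04 in limma). Values of MTHFD2 were 6.32, 6.25 and 6.19 in parental and 5.35, 5.23 and 5.23 in adapted cells.

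Salvage enzymes and nucleoside transporters moved in both directions. Of 16 genes, 15 were tested, 7 fell and 3 rose (26.2% and 30.7% of all rows tested), with a median of -0.08. The kinases UCK2, for uridine and cytidine (-0.76), DCK, for deoxycytidine (-0.48), and DGUOK, for deoxyguanosine in mitochondria (-0.47), fell together with CDA, cytidine deaminase (-0.56) (adjusted p at most 0.0261 in limma). The equilibrative transporters SLC29A1 (0.33) and SLC29A2 (0.38) and the mitochondrial nucleotidase NT5M (0.41) rose (adjusted p at most 0.0489 in limma). NT5M averaged 0.92 in parental cells, under the filter of 1, and 1.34 in adapted cells. It was thus tested only because of its adapted values (1.67, 1.16 and 1.18), and its call adds no support. SLC28A1, a concentrative transporter, did not reach the filter and was listed at 0.63 to 0.93 in parental and 0.13 to 0.24 in adapted cells.

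Purine synthesis and salvage, the parallel pathway, had 6 of 16 genes lower and 2 higher (26.2% and 30.7% of all rows tested). The list median was -0.12. HPRT1, which salvages hypoxanthine and guanine (-0.99), and the de novo enzymes PAICS (-0.94), GMPS (-0.66) and GART (-0.53) fell (adjusted p at most 8.69e-04 in limma). IMPDH1, an isoform of the rate-limiting step to GMP, rose by 0.50 and ADSL by 0.44, while IMPDH2 fell by 0.40 (adjusted p at most 0.034 in limma). PPAT, which opens the purine pathway as CAD opens that of pyrimidines, did not pass the threshold (log2 fold change -0.14, adjusted p = 0.238 in limma).

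The rows most like 4 of the enzymes were found by the root mean square difference of the 6 centred log2 values, over the 6 samples and outside the lists above. For RRM2 these were DTL (0.0255), a factor of S phase protein turnover, TM4SF18 (0.0391) and ZWINT (0.0408), a kinetochore protein. For TYMS they were AKR1B1 (0.0613), CD44 (0.0667) and CENPM (0.094). In adapted replicate 1, AKR1B1 was 6.07, against 4.90 to 4.97 in the other adapted samples and 6.12 to 6.18 in the parental samples. For CAD they were SLC35C1 (0.0166), CSTF2T (0.0209) and MARVELD1 (0.0347), and for DPYD they were NEMP1 (0.0337), RAD21 (0.0367) and DNA2 (0.0402). A likeness over 6 samples of 2 groups describes these samples only.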

How the data were processed

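The authors deposited 1 table of log2 values per gene and sample, which was taken as log2(FPKM + 1) because 2 to the power of the value, minus 1, lies on a 6-decimal grid in all but 147 of 27216 rows (tolerance 0.02 millionths). Linear sums were 375342 to 387753 per sample. The submitters' processing notes name Bowtie2 2.1.0, STAR, edgeR and hg38. Quantifier, annotation and strand setting are not given in the sources used here. Depth is unknown, so replicate spread is the only error, and the labels do not say whether the 3 samples of a group are separate cultures. The study's general statement on statistics speaks of independent experiments and of technical replicates without saying which these samples are, so p-values may measure technical spread only. Columns named DMSO and OSI were matched to the 0 h and 72 h samples by group and replicate number.

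The study's methods name a model for raw counts, which these values are not. Instead, 12656 rows with a mean of at least 1 were fitted with limma 3.58.1 in R 4.3.3 (eBayes with an intensity trend, unpaired, Benjamini-Hochberg, threshold 0.05). This choice followed a test on simulated data, the outcome of which is not reported here. Fold changes on this scale understate those of low genes. Partner differences were tested by exact permutation (scipy 1.17.1), adjusted over 6 pairs, of which 5 are shown. Some genes of the lists enter the counts and are not reported here by name. Loci are from GENCODE v29, promoters from RefSeq. Genes named from each list are up to 4 that rose and 4 that fell most without overlap, partners, and 3 rows most like CAD, TYMS, RRM2 and DPYD. FPKM levels, the values of SLC28A1, SAMHD1 and E2F1, the genes under the filter, PPAT, TYMP and IMPDH2 were named outside this rule, after their values were seen. So were E2F2, E2F3, E2F4, RB1, RBL1 and RBL2. Members and lists were chosen with earlier results of these data known. Alternatives covered pseudocount, filter, scaling, eBayes settings, replicate block, rows and samples left out.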

Additional observations from a re-analysis of the deposited data

How the results depend on the processing

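Across 422 recalculations of 26 results, 406 were labelled as unchanged, by a rule that differed with the result. For single enzymes this meant the same direction and side of the threshold, and for counts a value within 1.5 times. For the median of the enzymes it meant a shift smaller than the SD of the adapted samples. For partner differences it meant the same sign only, and their exact permutation p was not used. Without the filter on low values TYMS was no longer called (log2 fold change -0.87, adjusted p = 0.128 in limma), and 4 of 10 genes of UMP and CTP synthesis were, against 8. A filter at a mean of 3 left 4532 rows called, of fewer tested. A minimum log2 fold change of 1 in size left 4 of the 7 enzymes called (TK1, RRM2, RRM1 and DPYD), and a threshold of 0.01 left 6, without TYMS. Leaving out 1 sample gave log2 fold changes of -1.22 to -0.65 for TYMS, -0.06 to 0.10 for UMPS (below 0 without parental replicate 3, -0.061, and without adapted replicate 1, -0.034) and -0.01 to 0.22 for CTPS1 (-0.0072 without adapted replicate 1), 2 to 9 calls in UMP and CTP synthesis and 1 to 2 in pyrimidine breakdown (2 without adapted replicate 2). The cause of these changes was not tested. CAD, TK1, RRM1, RRM2, DUT and DPYD stayed past the adjusted p threshold of 0.05 in every refit listed here. With the replicate number as a block (replicate block), 7 of the 9 enzymes were called and 6761 rows, and TYMS had an adjusted p of 0.0185. Same-numbered samples did not deviate together across genes (r = -0.051, -0.031 and -0.020). This check cannot settle whether same-numbered samples share a culture or batch. The share of calls higher in adapted cells was 51.1% to 59.1% over the scalings, against 54%, and the median of all rows was 0.005 to 0.070, against 0.028. Precision is limited by 3 samples a group and unknown depth.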
